A study of Mus musculus with 8 samples.

Results

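The pluripotency genes *Pou5f1*, *Nanog*, *Klf2*, *Klf4*, *Klf5*, *Esrrb*, *Tfcp2l1*, *Prdm14*, *Zfp42* and *Lin28a* were examined in the chromatin contact maps of mouse embryonic stem (ES) cells and lens cells. They are 10 of the 20191 protein-coding genes of at least 1 kb in the gene table used here (assembly GRCm38.p6). They were listed by name, with earlier results of these data known. A feature was counted at a gene when it overlapped the gene body widened by 5 kb on each side. Hi-C, which counts ligated pairs of DNA ends that lie close together in the nucleus, was performed on v6.5 ES cells and on lens cells. The ES cells were wild type, a single male line of mixed strain background grown with LIF and without feeder cells. Lens epithelium and lens fiber cells were dissected from CD-1 mice at postnatal day 0.5. Strain therefore differs along with cell type between ES and lens cells. There were 2 replicates of each cell type. Each lens replicate pooled 30 lenses and each ES replicate held 2000000 cells, and all were fixed with 2.0% formaldehyde. CTCF ChIP-seq was available for 1 sample of lens epithelium and 1 sample of lens fibers by the labels, each from lenses pooled at the same age. The study's methods speak of 2 biological replicates, so that it is not known whether each peak list stems from 1 library or from a pool. No treatment was applied, and an ES cell CTCF list was not analysed here.

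Mouse ES cells maintain themselves through a small network of transcription factors in which Oct4 (the product of *Pou5f1*), Sox2 and Nanog bind many of the same enhancers, their own genes included. Around this core stand factors of the naive state, among them the Krüppel-like factors Klf2, Klf4 and Klf5, the orphan nuclear receptor Esrrb, and Tfcp2l1 and Prdm14. Most of these genes are silenced when cells leave pluripotency, although *Klf4* and *Klf5* are also used in epithelia. Chromatin loops form where cohesin extrudes DNA until it meets CTCF bound in convergent orientation, or where enhancers and promoters meet, and TADs are the domains within which contacts are frequent.

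The authors merged both replicates before calling loops with HiCCUPS and TADs with Arrowhead, so that each cell type has 1 list of each kind, no value carries an error between replicates and cell types could not be tested against each other. HiCCUPS listed 8459 ES loops, 8005 epithelium loops and 7682 fiber loops, with medians of 56, 51 and 63 observed contacts per loop. The TAD lists held 3604, 1796 and 2641 domains. MACS2 listed 16433 CTCF peaks for epithelium and 23868 for fibers, with a median fold enrichment of 5.78 and 6.44. A feature absent from a list was not called there, which does not show that the contact or the binding was absent. All intervals below are 95% intervals and cover counting error only.

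Only 3 of the 10 genes had an ES loop anchored within their window: *Nanog* had 1, *Klf4* had 2 and *Prdm14* had 3. The share of all genes with an ES loop was 39.3%, so 3 of 10 is near the background. The same number of genes, 3, had an epithelium loop (38.2% of all genes), and 3 had a fiber loop (36.5% of all genes), in both lists *Klf4*, *Esrrb* and *Prdm14*. The remaining 6 genes, *Pou5f1*, *Klf2*, *Klf5*, *Tfcp2l1*, *Zfp42* and *Lin28a*, had no anchor in any of the 3 lists, as did 45.2% of all genes. *Nanog* was the only one of the 10 with a loop listed in ES cells alone (27.5% of all genes have such a loop), and *Esrrb* the only one with lens loops and no ES loop (15.5% of all genes). The ES-only count depends on the window, with 0 such loops for the gene body alone and 2 with 25 kb added on each side.

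**Figure D1:**
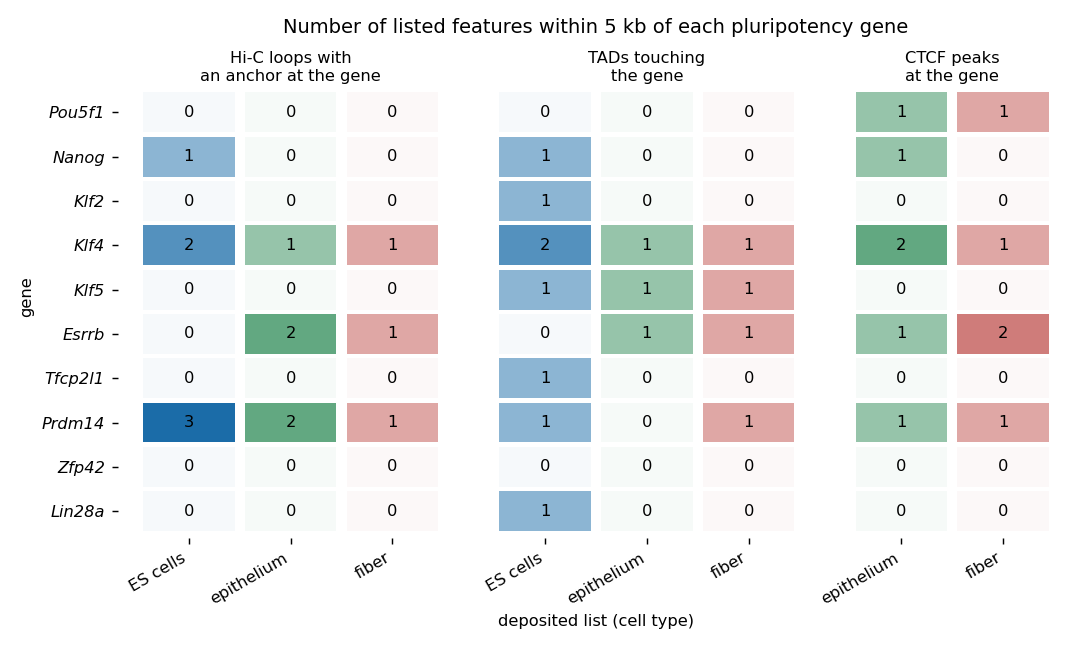
Number of loops, TADs and CTCF peaks (columns, by cell type) listed within 5 kb of each of the 10 pluripotency genes (rows), with darker cells for higher counts. *Prdm14* holds the highest number of ES loops (3), *Zfp42* has 0 in every column, and *Nanog*, *Klf2*, *Tfcp2l1* and *Lin28a* have an ES TAD and no lens TAD.

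In total 6 ES loops, 5 epithelium loops and 3 fiber loops had an anchor at one of these genes. An ES loop was called kept when a loop in either lens list had both anchor midpoints at most 10 kb from its own, and ES-only otherwise. Anchors are up to 25 kb wide, so that a pair of loops in neighbouring 25 kb bins does not match at this limit. The distance between a pair of loops is the larger of their shifts in anchor midpoint. Of the 6 ES loops, 5 were kept (83.3%, Wilson interval 43.6% to 97.0%) and 1 was ES-only, while 43.0% of all 8459 ES loops were kept. The 5 kept loops come from *Klf4* and *Prdm14* alone and share anchors with each other, so that they are not independent and the interval is too narrow. For each ES loop at or across these genes, the distance to the nearest loop of either lens list was taken. The largest such distance was 7.5 kb among kept loops, and the smallest among ES-only loops was 25 kb. Within a single list, some distances lay nearer to the limit. The epithelium counterpart of the 480 kb *Esrrb* loop lay 10 kb away. The epithelium loop closest to the ES loop across *Klf2* lay 22.5 kb away.

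*Nanog*, the homeodomain factor of the core network (chr6:122707489-122714633), carried the ES-only loop. It joined chr6:122665001-122670000 with chr6:122715001-122720000, which begins 367 bp past the end of the gene body, over a distance of 50 kb. It held 49 observed contacts (exact Poisson interval 36.3 to 64.8), 3.43 times the number expected from its surroundings, with a false discovery rate of 3.5e-08. The median over all 4824 ES-only loops was 225 kb and 2.86 times the expected contacts, so that the *Nanog* loop lay below their median size and above their median ratio. The closest epithelium loop lay 67.5 kb away and the closest fiber loop 70 kb away. The far anchor overlapped no protein-coding gene, and the nearest one other than *Nanog* was *Dppa3*, a maternal and germ cell factor, at 34.7 kb. Lens CTCF peaks covered the far anchor (1 in each list) and not the anchor beside the gene.

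The ES-only loop of *Nanog* lay inside a loop that all 3 cell types shared. This larger loop spanned the gene over 120 kb, from chr6:122660001-122670000 to chr6:122780001-122790000, and held 121 contacts in ES cells. In lens epithelium the same pair of bins was listed with 47 contacts, and in lens fibers wider bins 2.5 kb away held 191. In bins of 10 kb, the observed over expected ratios were 2.36 (interval 1.96 to 2.82) in ES cells and 3.31 (2.43 to 4.40) in epithelium, and these intervals overlap. In fibers the ratio was 2.51 (2.17 to 2.89) in bins of 25 kb, so that it is not directly comparable. An ES TAD of 150 kb (chr6:122650001-122800000) covered the same stretch, and the closest lens TAD had a border shifted by 400 kb. The frame around *Nanog* was therefore listed as a loop in all 3 cell types, and as a TAD and with the inner loop in ES cells only.

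**Figure D2:**
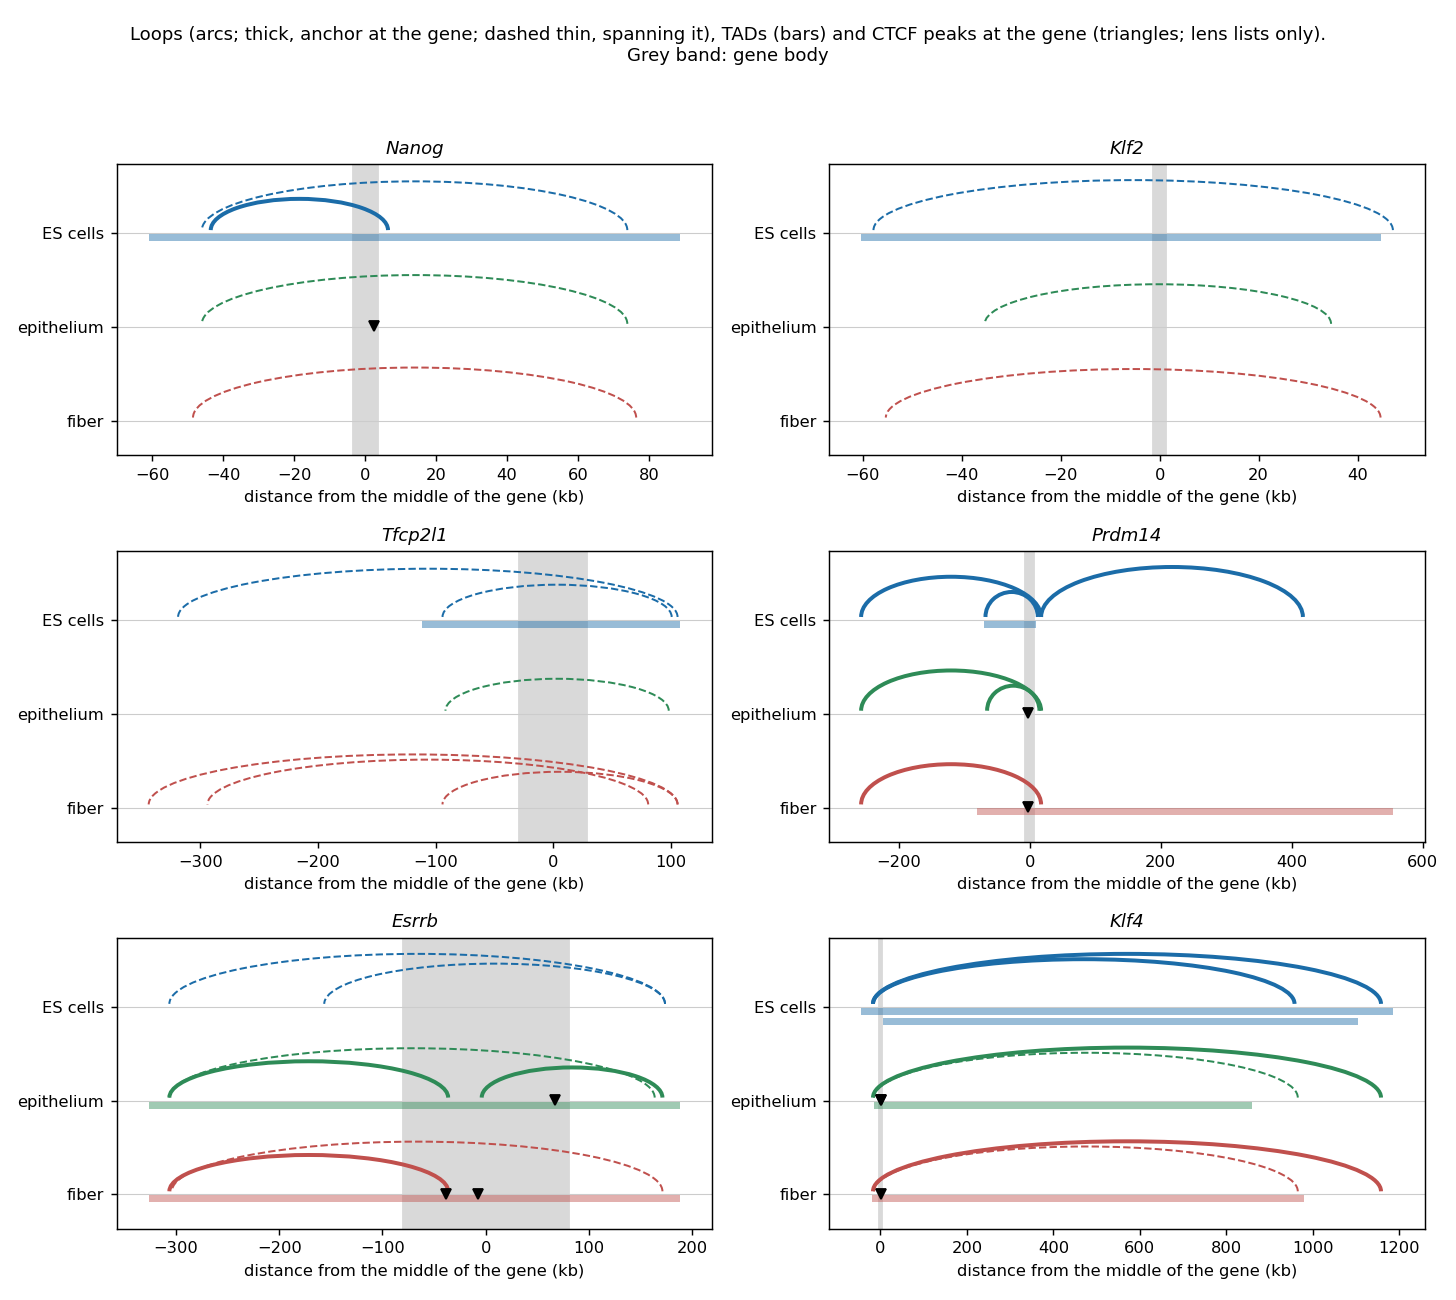
Loops, TADs and CTCF peaks around 6 of the genes, against the distance from the middle of the gene in kb, with 1 level for each cell type. Thick arcs are loops anchored at the gene, thin dashed arcs are loops up to 1.3 Mb that span it, bars are TADs, triangles are lens CTCF peaks at the gene, the grey band is the gene body, and the height of an arc only follows its length. The short thick arc at *Nanog* appears in ES cells alone, and the thick arcs ending inside *Esrrb* appear in the lens lists alone.

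The promoter window of *Nanog*, from 250 bases before to 50 bases after the transcript start (RefSeq, GRCm38.p6), holds the letters of a composite site for Oct4 and Sox2. It is shown because *Nanog* is the gene with the ES-only loop and because the proteins that read this pair of sites belong to the same network. The letters lie in neither anchor of that loop, and a link between the site and the loop was not tested. In the first line below, the capitals mark TTTGCAT, a part of the octamer site that is called the octamer letters here. After 1 base follow the capitals ACAATG, the Sox letters. The second line shows the only other match to the octamer letters among these genes, that of *Zfp42*, with TTTGCAT in capitals.
Nanog, chr6:122707406-122707435, plus strand: cagcttctTTTGCATtACAATGtccatggt
Zfp42, chr8:43307177-43307206, minus strand: tctgaagaggcaTTTGCATaactgagcaag

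Both strands of the windows were searched, and windows were found for 8 of the 10 genes, all but *Klf5* and *Prdm14*. The pair in this spacing occurred in 2 of 32851 windows (0.00609%), both of them *Nanog* windows that overlap, and TTTGCAT alone occurred in 4.63% of windows. The first base of the octamer letters lies at position -75 from the *Nanog* start and at -185 from the *Zfp42* start. The GC box GGGCGGGGC, a type of letters bound by Krüppel-like and Sp factors, was present in the windows of *Pou5f1*, *Klf2* and *Klf4* (11.0% of all windows). The line of *Pou5f1* is shown because it is the core factor without a loop or a TAD, and the capitals mark the GC box at position -45.
Pou5f1, chr17:35505976-35506005, plus strand: acccacccaggGGGCGGGGCcagaggtcaa
No window of the 8 genes held the core letters of the CTCF motif (2.43% of all windows) or the extended nuclear receptor site TCAAGGTCA that Esrrb reads (0.423% of all windows). The motifs other than that of CTCF were chosen after values had been seen, and a match describes letters, not a bound site.

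*Pou5f1*, which encodes Oct4 (chr17:35506032-35510777), had no loop anchor and no TAD in any list. The nearest ES anchor lay 69.2 kb away and the nearest epithelium anchor 31 kb away. A single loop of up to 3 Mb spanned it, in epithelium, over 775 kb with only 16 contacts. A CTCF peak lay 3271 bp beyond the upper end of the gene in epithelium, at chr17:35513894-35514178, with a fold enrichment of 6.01. The fiber peak had its summit 2 bp from the epithelium summit and a fold enrichment of 4.29, lower than all but 5.94% of the fiber list.

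*Klf4* (chr4:55527137-55532475), one of the factors used to reprogram somatic cells and also a regulator of epithelial differentiation, had 2 ES loops that share the anchor chr4:55500001-55525000, which ends 2136 bp below the gene. The longer one spanned 1175 kb to chr4:56675001-56700000. It was listed in the same bins in all 3 cell types, with 125 contacts in ES cells, 105 in epithelium and 111 in fibers. Its observed over expected ratios were 2.67 (interval 2.22 to 3.18), 3.24 (2.65 to 3.92) and 2.71 (2.23 to 3.26), which overlap. The shorter one spanned 975 kb and held 118 contacts, 2.1 times the expected number. Both lens lists held its counterpart 7.5 kb away with narrower bins, at 980 kb, with 42 contacts in epithelium and 37 in fibers, but there the near anchor fell outside the window of the gene. Neither far anchor overlapped a protein-coding gene, and the nearest was *Actl7b*, an actin-like gene of the testis, at 240 kb and 40 kb.

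The TADs at *Klf4* ran in the same direction as its loops. ES cells had 2, of 1230 kb and 1100 kb, and the shorter one began past the upper end of the gene. Epithelium had a TAD of 875 kb and fibers one of 1000 kb, with borders that differed from the closest ES TAD by up to 245 kb and 125 kb. CTCF peaks lay inside the gene body, 2 in epithelium (fold enrichment 5.33 and 4.68) and 1 in fibers (7.89), with 60 bp between the summits of the shared pair. None of these peaks was covered by a loop anchor of any list.

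*Prdm14* (chr1:13113428-13127163), which encodes a PR-domain protein that represses DNA methylation and differentiation genes, had the most ES loops of the group. The 275 kb loop from chr1:12850001-12875000 to chr1:13125001-13150000 was listed in the same bins in all 3 cell types, with 145, 83 and 114 contacts in ES cells, epithelium and fibers. The ratios to expected contacts were 2.28 (interval 1.93 to 2.69), 3.10 (2.47 to 3.84) and 3.07 (2.53 to 3.69). Its far anchor overlapped *Sulf1*, which edits heparan sulphate outside the cell, and *Slco5a1*, a member of the organic anion transporter family. The 80 kb loop held 64 contacts in ES cells, 5.02 times the expected number (3.86 to 6.41), and 41 in epithelium at 2.82 times (2.03 to 3.83), in bins of 5 kb and 10 kb, so that the values are not directly comparable. It was not in the fiber list, where the closest loop was 190 kb away. The 400 kb loop, with 189 contacts at 2.35 times the expected number, had an epithelium counterpart 7.5 kb away and its closest fiber loop 25 kb away, beyond the limit.

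At the 10 kb limit, all 3 *Prdm14* loops thus had a counterpart in epithelium, and only the 275 kb loop had one in fibers. The epithelium counterpart of the 400 kb loop had no anchor in the window of the gene. Only 2 epithelium loops were therefore counted at *Prdm14*. The ES TAD at *Prdm14* was short, 80 kb, and its corner fell 2.5 kb from the 80 kb loop. Fibers had a TAD of 635 kb that held the whole gene, and epithelium had none. A single CTCF peak lay in the gene body in both lens lists, with 3 bp between summits, at 7.63 in epithelium and 8.54 in fibers, above 82.4% and 77.7% of the peaks of its list. This peak was not inside an anchor of any of these loops.

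**Figure D3:**
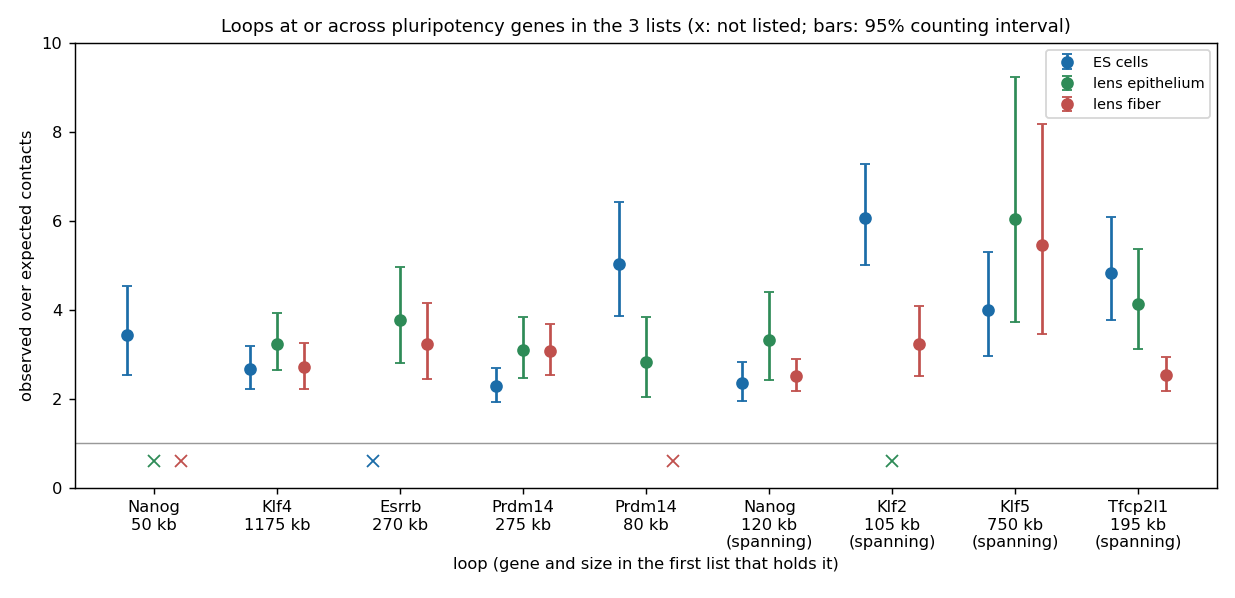
Observed over expected contacts (vertical axis, linear) of 9 loops at or across pluripotency genes in the lists of ES cells, lens epithelium and lens fibers, with bars for the exact Poisson interval of the observed count at a fixed expectation and a cross where a list has no such loop. *Klf4* and *Prdm14* (275 kb) carry a point for each cell type, *Nanog* (50 kb) for ES cells alone and *Esrrb* (270 kb) for the lens lists alone. Bin widths differ between the lists for *Prdm14* (80 kb), *Nanog* (120 kb), *Klf2*, *Klf5* and *Tfcp2l1*, so that their points are not directly comparable.

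*Esrrb* (chr12:86361117-86521628), the longest gene of the group at 160.5 kb, showed the opposite listing. A long gene leaves more room for an anchor, and the median length of all genes was 19.5 kb. It had no ES loop anchor and no ES TAD, and its nearest ES anchor was 51.1 kb away. In both lens lists a 270 kb loop ran from chr12:86130001-86140000, which overlaps the ciliary gene *Ift43*, to chr12:86400001-86410000 within the gene body. It held 51 contacts in epithelium (3.76 times the expected number, interval 2.80 to 4.95) and 59 in fibers (3.22 times, 2.45 to 4.15), and its closest ES loop lay 100 kb away. Epithelium had another loop of 175 kb, from inside the gene at chr12:86425001-86450000 to chr12:86600001-86625000, with 153 contacts at 2.21 times the expected number.

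Both lens lists also held the same TAD over *Esrrb*, 515 kb long at chr12:86115001-86630000. Having both lens TADs and no ES TAD is found for 4.58% of all genes, and for 1 of these 10. The outer loop that follows this TAD was present in ES cells too, at 480 kb with 44 contacts, and was kept in epithelium at 470 kb (30 contacts) and in fibers at 475 kb (159 contacts in wider bins). A further ES loop of 330 kb across the gene, with 65 contacts, had its closest lens loop 147.5 kb away. The CTCF peaks in the gene body differed between the lens lists. Fibers had peaks at 7.29 and 8.41, each covered by an anchor of an epithelium loop and the first also by the anchor of the fiber loop, while epithelium had a single peak elsewhere in the gene at 7.32, which no anchor covered.

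Several genes were enclosed by a loop, with or without an anchor of their own. Of the 10 genes, 5 were spanned by an ES loop of up to 3 Mb (*Nanog*, *Klf2*, *Klf5*, *Esrrb* and *Tfcp2l1*), near the 43.7% of all genes. The innermost of these loops was kept in lens for 4 of the 5, all but *Esrrb*, and for 33.9% of the 8831 genes that an ES loop spans. The same count for the 30 other genes of the network listed below was 6 of 21. The 5 genes are few and no test was made, and spanning loops were looked at after the lists had been seen.

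*Klf2* (chr8:72319062-72321654), a Krüppel-like factor also known from endothelium and T cells, sat within an ES loop of 105 kb that held 115 contacts at 6.06 times the expected number (interval 5.00 to 7.27), the highest ratio among the ES loops at or across these genes. In fibers its counterpart of 100 kb held 70 contacts at 3.23 times (2.52 to 4.09), in bins of 10 kb where the ES bins measure 5 kb. In epithelium the closest loop was shorter, 70 kb, and lay 22.5 kb away, so that it was not counted as the same loop. An ES TAD of 105 kb matched the ES loop within 2.5 kb, and no lens TAD came closer than 649.1 kb to the gene.

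*Tfcp2l1* (chr1:118627923-118685168), a grainyhead-family factor of the naive state, was enclosed by an ES loop of 195 kb with 70 contacts at 4.82 times the expected number (interval 3.76 to 6.09). Epithelium listed it at 190 kb with 56 contacts, 4.13 times (3.12 to 5.36), and fibers at 200 kb in bins of 25 kb with 181 contacts, 2.54 times (2.18 to 2.94). The bin widths differ between the lists, and the ratios were not compared further. An ES TAD of 220 kb covered the loop, and neither lens list had a TAD there. A wider ES loop of 425 kb was ES-only, with fiber loops of 375 kb and 450 kb each beyond the 10 kb limit at a distance of 25 kb.

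*Klf5* (chr14:99298691-99313412), which is also expressed in many epithelia, was touched by a TAD in every list. Its ES TAD of 805 kb and the TAD of 775 kb in both lens lists differed by at most 25 kb at a border. A loop of 750 kb in ES cells (48 contacts, 4.0 times expected, interval 2.95 to 5.30) was listed 2.5 kb away in epithelium (21 contacts, 6.03 times, 3.73 to 9.22) and in fibers (23 contacts, 5.45 times, 3.45 to 8.17). The bins measure 10 kb in ES cells and 5 kb in both lens lists, so that the values are not directly comparable. Epithelium alone listed 2 further loops across the gene, of 600 kb with 65 contacts and of 2300 kb with 67 contacts, whose closest ES loops lay 157.5 kb and 800 kb away. No CTCF peak of either list lay within 5 kb of the gene.

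*Lin28a* (chr4:134003330-134019196), whose RNA-binding product blocks the maturation of let-7 microRNAs, had an ES TAD of 155 kb and nothing else in its window. No loop of up to 3 Mb in any list spanned it, and its nearest ES anchor was 165.8 kb away. *Zfp42* (chr8:43295067-43307009), which encodes the zinc finger protein Rex1 used as a marker of naive cells, had no loop, TAD or lens CTCF peak in its window. An ES anchor lay 18 kb from it, the nearest lens anchors lay 1758 kb or more away, and the nearest TAD of each list lay 1628 kb away.

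Across the 10 genes, the number of genes touched by a TAD differed between the lists, while the number with a loop anchor was 3 in each. An ES TAD touched 7 genes (45.7% of all genes), an epithelium TAD touched 3 (24.1% of all genes) and a fiber TAD touched 4 (33.3% of all genes). The ES TAD had no lens TAD beside it for 4 genes, *Nanog*, *Klf2*, *Tfcp2l1* and *Lin28a*, against 19.0% of all genes. These 4 ES TADs measured 105 kb to 220 kb, a range that holds 42.7% of the ES TADs, 9.69% of the epithelium TADs and 29.8% of the fiber TADs. When only TADs of at least 200 kb were counted, the ES TADs at the 10 genes fell from 8 to 4, beside 3 in epithelium and 4 in fibers, so that the counts of the lists were then alike. Of the 4 ES TADs without a lens TAD, that of *Tfcp2l1* was the only one of this size. For *Nanog*, *Klf2* and *Tfcp2l1* the ES loop closest to the TAD corners (15 kb, 2.5 kb and 17.5 kb away) was one that was kept in lens, whereas the closest ES loop to the corners of the *Lin28a* TAD was 217.5 kb away.

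CTCF peaks were found at 5 genes in epithelium (33.1% of all genes) and at 4 genes in fibers (48.5% of all genes), and 5 genes had a peak in neither list (48.4% of all genes). *Pou5f1*, *Klf4* and *Prdm14* had an overlapping pair of peaks in the 2 lists. The epithelium peak inside *Nanog* was the weakest of the 11, at 3.92, lower than all but 3.82% of its list, and had no fiber counterpart, the nearest fiber peak being 25.4 kb from the gene.

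The contrast between ES-only and kept loops was then set against the whole ES list. The 5 kept loops at these genes had a median size of 400 kb and a median of 2.35 times the expected contacts, against 50 kb and 3.43 times for the ES-only loop of *Nanog*. Over all ES loops the medians were 220 kb for kept and 225 kb for ES-only loops, and 3.37 and 2.86 times the expected contacts. The comparison at these genes rests on 1 ES-only loop, and its order turned with the settings. With 25 kb added to the gene body the ES-only median was 837.5 kb against 400 kb for kept loops, and with anchors of 5 or 10 kb only, the kept ratio was 5.02 against 3.43. Anchors of 25 kb made up 4 of the 5 kept loops here and 15.9% of all kept loops, and bins of different width hold different numbers of contacts. Fiber CTCF peaks were present at both anchors of 3 of the 5 kept loops and not of the ES-only loop, whose anchors measure 5 kb. A wider anchor also leaves more room for a peak. Over the whole list this share was 47.3% (Wilson interval 45.7% to 48.9%) for kept and 22.6% (21.4% to 23.8%) for ES-only loops. These are lens peaks, and kept loops are by definition listed in lens. The shares therefore do not describe CTCF binding in ES cells. With epithelium peaks in place of fiber peaks none of the 6 loops had both anchors covered, and the shares over the whole list were 19.4% and 10.1%.

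**Figure D4:**
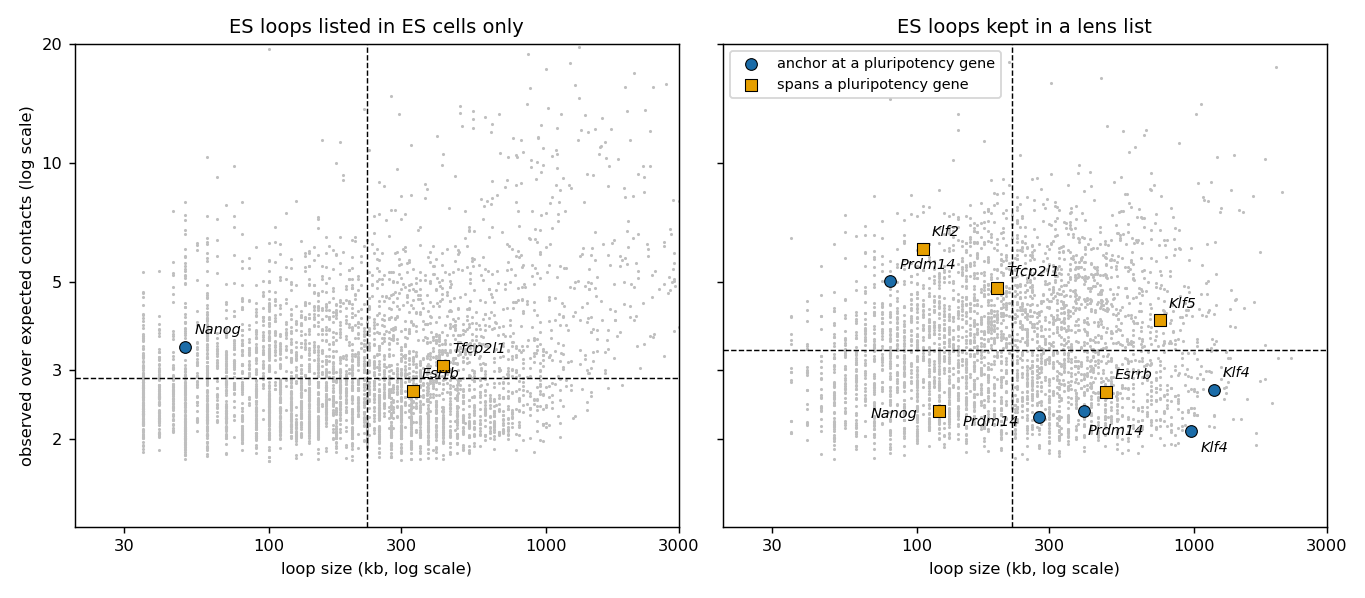
Size (horizontal axis, kb, log scale) and observed over expected contacts (vertical axis, log scale) of ES loops that are ES-only (left) or kept in a lens list (right), with grey points for all ES loops, dashed lines for the medians of each panel, circles for loops anchored at a pluripotency gene and squares for loops that span one. The *Nanog* loop lies left of the median size, and 303 ES-only and 25 kept loops beyond the axes are not drawn.

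The 30 other genes of the network, fixed as a list that holds partners, targets and signalling genes of pluripotency such as *Sox2*, *Sall4*, *Tbx3*, *Lifr*, *Stat3* and *Otx2*, were counted in the same way. An ES loop was anchored at 8 of the 30 (26.7%, against 39.3% of all genes), an epithelium loop at 11 (36.7%, against 38.2%) and a fiber loop at 11 (36.7%, against 36.5%). An ES TAD touched 16 (53.3%, against 45.7%), an epithelium TAD 13 (43.3%, against 24.1%) and a fiber TAD 12 (40.0%, against 33.3%). An ES TAD without a lens TAD was found at 7 (23.3%, against 19.0%). CTCF peaks were found at 11 in epithelium (36.7%, against 33.1%) and at 12 in fibers (40.0%, against 48.5%). Of the 23 ES loops at these genes 6 were kept (26.1%), and without *Tbx3*, which alone had 8 ES loops and none of them kept, 6 of 15 were kept (40.0%). The order of kept and ES-only loops at the 10 genes was therefore not that of the wider list.

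Among these 30, *Tbx3*, a T-box factor that supports self-renewal, had ES-only loops from 165 kb to 19880 kb, 3 of them above 3 Mb with 16 to 19 contacts each. *Sox2*, the partner of Oct4, had 2 ES-only loops, of 110 kb with 50 contacts at 6.22 times the expected number and of 475 kb with 171 contacts at 2.30 times, and 1 kept loop of 840 kb. *Tet2*, an enzyme that oxidises methylated cytosine, had 2 ES-only loops of 225 kb and 1750 kb and no lens loop. *Otx2*, a factor of the primed state and of the anterior head, had 2 as well, of 550 kb and 21425 kb, the latter with 13 contacts. *Mycn*, a proto-oncogene of the Myc family, had 2 ES-only loops of 155 kb and 525 kb beside 2 kept ones.

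The pattern of *Nanog*, 1 ES loop and no lens loop, was shared by 1527 other protein-coding genes. The 3 of them closest to it in length (7.1 kb) were *Syvn1*, *Trim34b* and *Dusp7*. By selection each had 1 ES loop and no lens loop, and this ES loop was ES-only. None of them had a CTCF peak in either lens list. Of these, *Dusp7* was the one whose innermost spanning ES loop was kept in lens, as at *Nanog*.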

How the data were processed

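Hi-C reads of 2 replicates per cell type were aligned and merged by the authors with the tools named in their processing notes (BWA, Juicer, build mm10), and loops and TADs were called with HiCCUPS and Arrowhead (juicer_tools 2.13.06 in the file headers). The observed count that the authors deposited for a loop is its number of contacts in the merged map, the expected numbers come from its surroundings, and the false discovery rate is a q-value. The authors called CTCF peaks with MACS2, and each deposited peak has a score, a fold enrichment and, as −log10, its p-value and q-value. The read depth behind these lists was not used here.

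Overlaps, sizes and ratios of observed to donut-expected contacts were computed in pandas 2.3.3 and scipy 1.17.1 (Python 3.11.15, numpy 2.4.6), with figures from matplotlib 3.10.9. Positions count from 1, and size is the distance between anchor midpoints. An overlap needed at least 1 bp. The overlap rules were tested on simulated data, and 5 of 5 checks gave the known answer. The text names every member with all its features, the up to 5 genes of the wider list with most ES-only loops, the coding gene at or nearest a far anchor, and the 3 genes most like *Nanog* in loop counts and length. The members and lists were chosen with earlier results of these data known. Alternatives took other gene windows, loop, TAD and peak filters and matching rules. Exons and expression were not analysed here, so that positions are given per gene and the labelled cell types were not checked against marker genes.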

Additional observations from a re-analysis of the deposited data

How the results depend on the processing

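Of 107 values under alternative settings, 84 stayed within 1.5 times the reported value, the limit used because the lists give no replicate spread, and 23 did not. With the gene body alone, 2 ES loops at 1 gene and 3 epithelium loops remained, 2 of the ES loops were kept, 0 were ES-only and 1 kept loop had fiber CTCF at both anchors, so that no size or ratio of an ES-only loop could be given. With 25 kb added to the gene body, there were 5 fiber loops, 2 ES-only loops with a median size of 837.5 kb, 17 genes of the wider list with an ES loop, 10 epithelium peaks and 11 fiber peaks. With anchors of 5 or 10 kb only, there were 2 ES, 2 epithelium and 1 fiber loops, 1 kept loop of 80 kb at 5.02 times the expected contacts with fiber CTCF at both anchors (1), and 5 genes of the wider list with an ES loop. Against the largest of the 4 expectations the *Nanog* loop stood at 2.26. With epithelium peaks, 0 kept loops had CTCF at both anchors. With TADs of at least 200 kb, 4 ES, 3 epithelium and 4 fiber TADs touched the genes. A false discovery rate below 0.01, loops up to 3 Mb, both other matching rules and peaks with a −log10 q above 3 moved no value by more than 1.5 times. No paired analysis was possible because the replicates were merged before calling and the lists carry no replicate values, and for the same reason no replicate could be left out. The paper reports similar Hi-C contact totals for the cell types, but a far lower share of contacts between chromosomes in ES cells. Contact counts were not scaled for this, so that raw counts are not directly comparable between cell types. Low contact counts of single loops, this difference and the unknown depth of the ChIP-seq libraries limit what an unlisted feature shows.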
